A study of Homo sapiens with 40 samples.

Results

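The CNOT1 siRNA effect in subpolysomal RNA was compared with the CNOT1 siRNA effect in the input RNA of the same gradients, gene by gene, in HEK293 cells, a human embryonic kidney line. The comparison used 16 of the 40 RNA-Seq samples of the series, all replicates of 4 groups with 4 samples each. Its members were chosen by their labels alone. The first pair of groups was input RNA, taken before the sucrose density gradient, from cells transfected with control siRNA or with CNOT1 siRNA. The other pair was the subpolysomal RNA (SUB) of control siRNA and CNOT1 siRNA cells, pooled from gradient fractions 1 to 5. The cells were otherwise untreated, nuclei were spun out of the lysates before the gradient, and CNOT1 was targeted with a single siRNA.

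CNOT1 is the scaffold of the Ccr4-Not complex, which shortens the poly(A) tails of mRNAs and to which repressors such as DDX6 and eIF4A2 bind. In a sucrose gradient, mRNAs that carry many ribosomes sediment into the polysomal fractions, whereas mRNAs with few or no ribosomes stay in the lighter, subpolysomal ones. Loss of Ccr4-Not can alter both how much of an mRNA a cell holds and where in the gradient it lies, and the comparison asks which genes changed in subpolysomal RNA by more, or by less, than they changed in the input.

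The quantity used throughout is the interaction, that is the log2 fold change between CNOT1 siRNA and control siRNA in SUB minus the same log2 fold change in input. A gene called higher gained SUB RNA relative to its own input RNA when CNOT1 was depleted. Of 17105 genes tested with the quasi-likelihood test of edgeR, 775 were called higher (4.53%) and 878 were called lower (5.13%) at an FDR under 0.05. The median over all genes tested was -0.05. With the replicate number as a block the counts were 1337 higher and 1405 lower, and these held every gene called without it. Without the 4 libraries of replicate 1 they dropped to 140 and 122, without those of replicate 4 to 209 and 212, without those of replicate 2 to 504 and 358, and without those of replicate 3 to 410 and 416. The count of lower genes was 512 without control siRNA input replicate 3, 567 without control siRNA input replicate 4 and 583 without CNOT1 siRNA input replicate 1. No gene called in the fit of 16 libraries was called in the opposite direction in any of these fits.

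The libraries held between 34.3 and 40.7 M counts in input and between 15.9 and 27.3 M in SUB. The SUB libraries of replicates 1 and 2 were deeper than those of replicates 3 and 4 and stood apart from them on the third principal component, which held 7.15% of the variance. With replicates 1 and 2 alone 997 genes were called higher and 1134 lower, and with replicates 3 and 4 alone 715 and 499. Of the HEK293 markers, NEFM (1220 to 4470 CPM, counts scaled to the library size), NEFL (644 to 867) and VIM (212 to 487) were abundant, whereas LHX1 (2.71 to 7.4) and PAX2 (0.111 to 0.787) were low. Of the markers of other cell types counted, ALB, PTPRC, CDH5, HBB, MYOD1 and INS, none exceeded 0.403 CPM in any library. Each library is scaled to its own total, so a change in the amount of RNA in a whole fraction was not measured.

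The siRNA target checked the labels. CNOT1 (chr16:58553855-58663789 on GRCh37, the build of the counts) stood at 700.5, 733.1, 686.5 and 651.2 CPM in the 4 control siRNA input libraries and at 43.2, 38.7, 42.1 and 42.3 CPM with CNOT1 siRNA. In SUB it stood at 311.4, 319.9, 249.8 and 231.0 CPM with control siRNA and at 90.5, 84.3, 74.6 and 77.1 CPM with CNOT1 siRNA. All 16 libraries therefore followed their labels. The decrease was smaller in SUB (log2 fold change -1.77) than in input (-4.06), so that CNOT1 itself had the largest interaction of the named genes (2.29 ± 0.15 SE, FDR 6e-08, edgeR). The SUB/input ratio of CNOT1 averaged -1.33 ± 0.17 on the log2 scale with control siRNA and 0.97 ± 0.15 with CNOT1 siRNA (SD, n = 4 each). These 2 groups of ratios did not overlap.

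Most called genes were called in only one of the compartments. Among the 775 higher genes, 303 rose in SUB with no call in input, 264 fell in input with no call in SUB, and 100 did both. A further 59 rose in both, 36 fell in both, and 13 were called in neither alone. Among the 878 lower genes, 373 rose in input with no call in SUB, 313 fell in SUB with no call in input, and 101 did both. There, 52 fell in both, 26 rose in both and 13 were called in neither. Over all genes tested, 17.4% rose and 21.6% fell in SUB, and 19.5% rose and 18.0% fell in input. Higher and lower genes also started from different places. With control siRNA their median SUB/input ratios were -0.78 and 0.23 on the log2 scale, beside 0.09 over all genes tested, a measure that shares the control libraries with the interaction.

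**Figure D1:**
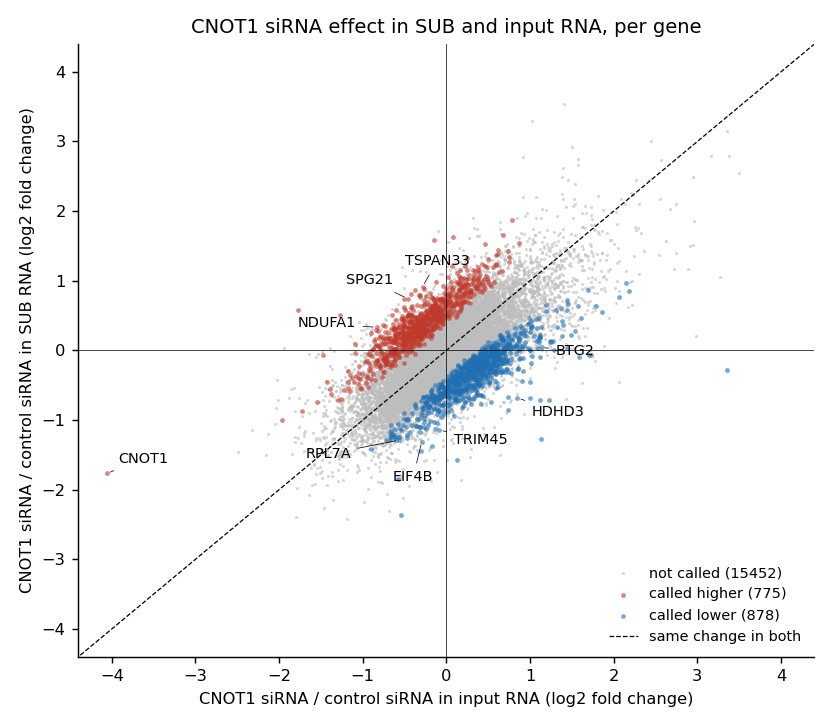
Log2 fold change between CNOT1 siRNA and control siRNA in input RNA (horizontal axis) and in SUB RNA (vertical axis), 1 point per gene tested, from 4 libraries per group. Genes called higher (775, red) lie above the dashed line of equal change and genes called lower (878, blue) below it; CNOT1 lies far to the left with -4.06 in input and -1.77 in SUB, and 1 gene lies outside the axes.

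The SUB/input ratio of each replicate gives the spread behind the calls. It comes from the same 16 libraries as the calls and is no separate support for them. For 728 of the 775 higher genes and 819 of the 878 lower genes, the 4 ratios with CNOT1 siRNA did not overlap the 4 with control siRNA in the direction of the call. Over all genes tested, 7.9% had ratios that lay wholly higher with CNOT1 siRNA and 9.45% wholly lower.

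Apart from CNOT1, the genes with the largest increases were SPG21, TSPAN33, ARSB, NDUFA1, BACE2, TMX4, CDK2AP1, COX6C, DAD1, FAM189B and LAPTM4B, with interactions from 1.21 down to 1.12. SPG21 (chr15:65255363-65282648), which encodes maspardin, a protein of endosomal membranes, stood at 97.9, 102.6, 92.7 and 97.4 CPM in control siRNA input and at 71.8, 73.4, 66.1 and 71.8 CPM in CNOT1 siRNA input. In SUB it went the other way, from 72.6, 93.8, 68.8 and 66.0 CPM to 117.5, 165.9, 106.1 and 114.9 CPM. The groups overlapped in neither compartment, and the interaction was 1.21 ± 0.18 (SE, FDR 0.00089, edgeR). TSPAN33, a tetraspanin, rose in SUB by 0.91 while its input value of -0.29 was not called.

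ARSB, a lysosomal sulfatase, had SUB/input ratios of -0.93, -0.34, -0.98 and -0.81 with control siRNA and of 0.42, 0.68, 0.26 and 0.31 with CNOT1 siRNA. BACE2, a membrane-bound aspartyl protease, moved from -1.43, -0.997, -1.42 and -1.51 to -0.45, -0.06, 0.08 and -0.30. LAPTM4B, a lysosomal membrane protein, moved from between -2.84 and -2.22 to between -1.68 and -1.26, and its SUB level stayed below its input level in both. DAD1, a subunit of the oligosaccharyltransferase of the ER, and TMX4, an ER thioredoxin-related protein, had interactions of 1.13 and 1.15. In 11 of the 12 genes with the largest increases the SUB and input effects had opposite signs, CNOT1 being the exception. CDK2AP1, a partner of the kinase CDK2, lost its call with all 24 gradient libraries in the fit (FDR 0.13), as did CNOT1 (FDR 0.232), with unchanged direction. That fit holds both polysomal replicate 3 libraries, in which CNOT1 goes against the labels, and with the 22 gradient libraries left without them both genes were called (FDR 0.00106 and 5.97e-10).

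The largest decreases were those of HDHD3, WFS1, RNF149, CCRN4L, PLEKHG3, ANKZF1, C7orf43, FKBP15, CYR61, BTG2, IFRD1 and TRIM45, with interactions between -1.53 and -1.06. HDHD3 (chr9:116135699-116139266), a hydrolase-domain protein, stood at 17.6, 18.2, 16.2 and 17.2 CPM in control siRNA input and rose to 29.3, 33.8, 30.7 and 30.8 CPM with CNOT1 siRNA. Its SUB values fell from 59.0, 57.1, 56.0 and 68.3 CPM to 37.5, 33.5, 32.5 and 46.4 CPM. Neither pair of groups overlapped (interaction -1.53 ± 0.15 SE, FDR 5.41e-05, edgeR). WFS1, wolframin of the ER membrane, had an interaction of -1.41 that missed the threshold without the libraries of replicate 4 (FDR 0.0511).

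For RNF149, CCRN4L, C7orf43, BTG2 and IFRD1 only the input effect was called. BTG2 (chr1:203274619-203278730) input rose from 44.3, 41.2, 47.0 and 37.8 CPM to 92.3, 89.8, 110.6 and 82.1 CPM, whereas its SUB values of 57.4, 64.0, 45.6 and 47.7 CPM were met by 57.0, 57.9, 60.9 and 45.4 CPM with CNOT1 siRNA. The input groups did not overlap and the SUB groups did. IFRD1, a transcriptional coregulator, showed the same layout, with an input effect of 1.10 and a SUB effect of 0.04. TRIM45, a ubiquitin ligase, was the reverse, with -0.08 in input and -1.14 in SUB. ANKZF1, which acts on nascent chains of stalled ribosomes, rose by 0.61 in input and fell by 0.53 in SUB.

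**Figure D2:**
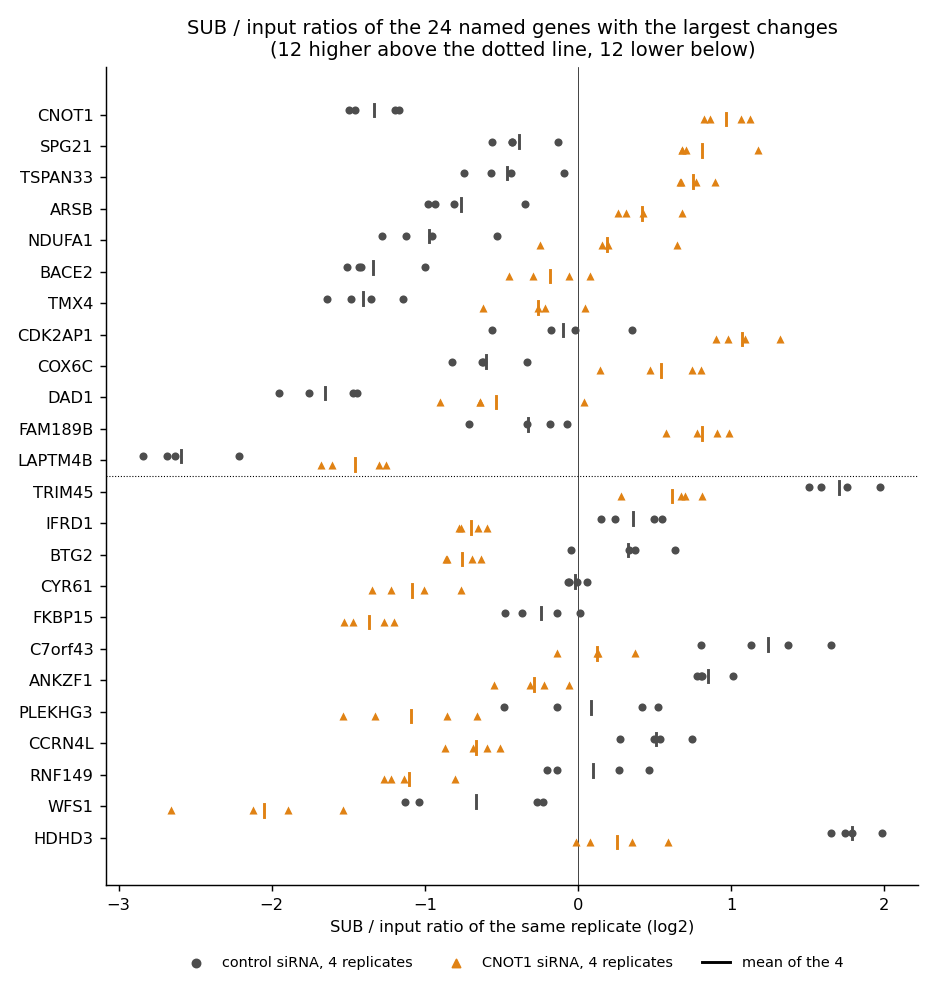
Log2 ratio of SUB to input CPM in each replicate for the 12 genes with the largest increases and the 12 with the largest decreases, with control siRNA (circles) and CNOT1 siRNA (triangles); short bars are the means of 4 replicates. The 2 groups of 4 do not overlap in any of the 24 genes, a property the rule for naming them required.

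Genes of the deadenylation machinery came next. Of the 12 Ccr4-Not subunits, CNOT1 and CNOT6 were called higher (16.7%) and CNOT3 lower (8.33%), with a median interaction of -0.01. Over all genes tested these shares were 4.53% and 5.13%. CNOT6, one of the paralogous CCR4-type deadenylases, had input values of 206, 199, 210 and 211 CPM with control siRNA and 124, 130, 128 and 115 CPM with CNOT1 siRNA. Its SUB values were 177, 174, 135 and 129 CPM and then 142, 151, 118 and 119 CPM, which overlapped (interaction 0.52 ± 0.16 SE, FDR 0.0392, edgeR). The call of CNOT6 was lost without any one of several single libraries, and so was that of CNOT3, a scaffold-associated subunit (-0.57, FDR 0.0435), whose ratios overlapped between the siRNAs. CNOT7, a CAF1-type deadenylase, had an interaction of 0.50 that was not called in the fit of 16 libraries without a block (FDR 0.0929, edgeR). It was called with the replicate number as a block (FDR 0.0159) and not with the block by culture (FDR 0.0563). With no block it was called in the 22 gradient libraries left without polysomal replicate 3 (FDR 0.0381). The remaining subunits lay between -0.33 (TNKS1BP1) and 0.20 (CNOT11).

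The 3 helicases of the study were not called in the fit of 16 libraries without a replicate block. DDX6 had SUB/input ratios of -0.99, -0.79, -1.55 and -1.53 with control siRNA and of -0.49, -0.40, -0.98 and -0.60 with CNOT1 siRNA, which overlapped (interaction 0.58 ± 0.19 SE, FDR 0.0648, edgeR). With the replicate number as a block DDX6 was called higher (0.59, FDR 0.0247), and with the block by culture it was not (FDR 0.066). DDX6 was also called higher, with no block, in the 22 gradient libraries left without polysomal replicate 3 (0.58, FDR 0.0244, edgeR). EIF4A2 had an interaction of -0.25 (FDR 0.389) and EIF4A1 of -0.05 (FDR 0.932), and with the replicate block these were at FDR 0.234 and 0.947; with the block within each fraction EIF4A2 was called lower (FDR 0.0132). The EIF4A1 counts were low (7.70 CPM on average) and its locus overlaps a readthrough gene, SENP3-EIF4A1, so that its counts are uncertain.

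Outside the Ccr4-Not complex, deadenylases and the BTG/TOB proteins, which bind the CAF1 deadenylases, were lower wherever they were called. Of 13 tested, 6 (46.2%) were called lower, beside 5.13% of all genes tested. None was called higher (none at an unadjusted p under 0.05 and none with DESeq2), and the median was -0.45. The called genes were CCRN4L, BTG2, BTG3, PDE12, TOB2 and TOE1. CCRN4L, which encodes nocturnin, had SUB/input ratios of 0.53, 0.74, 0.27 and 0.50 with control siRNA and of -0.60, -0.69, -0.87 and -0.51 with CNOT1 siRNA (interaction -1.19 ± 0.15 SE, FDR 0.000532, edgeR). The groups did not overlap. In input the list had 7 members higher and 1 lower, beside 19.5% and 18.0% of all genes tested. In SUB it had 3 higher and 4 lower, beside 17.4% and 21.6%. The count of lower genes ranged from 1 to 8 over the alternatives, the fewest being with all 24 gradient libraries in the fit, and was 6 with the 22 left without polysomal replicate 3.

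Decapping and P-body factors, which act after deadenylation, were split. None of 22 tested was called lower (3 at an unadjusted p under 0.05, none with DESeq2). LSM2, LSM3, LSM4 and LSM6 were called higher (18.2%, beside 4.53% of all genes tested). All 4 belong to the LSm ring that binds the shortened 3′ ends of mRNAs, also as part of the nuclear ring that serves splicing. LSM6 ratios were -0.48, -0.37, -0.34 and -0.56 with control siRNA and 0.38, 0.41, 0.54 and -0.03 with CNOT1 siRNA. The median of the list was 0.05. Of 28 RNA-binding proteins that recruit Ccr4-Not, AGO2, SAMD4B and RC3H2 were called higher (10.7%). None was called lower (3 at an unadjusted p under 0.05, none with DESeq2). The call of RC3H2 was lost in 18 of the 32 alternatives, without any one of several single libraries among them, and that of SAMD4B in 3. AGO2, the miRNA-guided Argonaute, moved from -1.66, -1.80, -1.43 and -1.63 to -0.87, -0.86, -0.60 and -0.74, with no overlap (interaction 0.86 ± 0.13 SE, FDR 0.00115, edgeR).

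The gene group with the most calls upward was that of the nuclear-encoded respiratory chain subunits. Of 76 tested, 25 (32.9%) were called higher, beside 4.53% of all genes tested. None was called lower (3 at an unadjusted p under 0.05, none with DESeq2), and the median interaction was 0.45. The input effect fell in 52 of the 76 and rose in 1, with a median of -0.48, whereas the median SUB effect was -0.03, with 6 higher and 17 lower. The SUB RNA of these genes thus changed less than their input RNA. Over all genes tested, 18.0% fell and 19.5% rose in input, and 17.4% rose and 21.6% fell in SUB. The median SUB/input ratio over the list was -0.68, -0.48, -0.44 and -0.53 in the 4 control siRNA replicates and -0.33, -0.33, 0.15 and -0.26 with CNOT1 siRNA.

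By complex, 6 of 10 tested subunits of complex IV were called higher, 13 of 38 of complex I, 5 of 15 of the ATP synthase and 1 of 4 of complex II. None of the 9 subunits of complex III was called in either direction, and their median interaction was 0.265. NDUFA1 (chrX:119005795-119010625), a small subunit of complex I, stood at 131, 118, 130 and 142 CPM in control siRNA input and at 77.7, 65.5, 70.7 and 78.7 CPM with CNOT1 siRNA. In SUB it had 59.9, 61.1, 89.98 and 58.4 CPM and then 86.5, 75.1, 110.9 and 66.2 CPM, groups that overlapped (SUB effect 0.33, not called). COX6C of complex IV and ATP5J of the ATP synthase had interactions of 1.14 ± 0.19 and 1.02 ± 0.15 (SE, FDR 0.0016 and 0.00089, edgeR). Without the replicate 1 libraries 7 subunits were called, and without those of replicate 4 there were 12. Over the 32 alternatives between 5 and 52 were called higher and between 0 and 6 lower. The median of the list lay between 0.31 and 0.51 in all 32 alternatives. Mitochondrially encoded mRNAs, which are translated inside the organelle, gave a median of -0.10 with no call among 12 (none at an unadjusted p under 0.05 and none with DESeq2). Mitochondrial ribosomal proteins gave 4 higher and 5 lower of 75 (5.33% and 6.67%), shares near those of all genes tested (4.53% and 5.13%).

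The ribosomal proteins and other TOP mRNAs went the opposite way. TOP mRNAs start with a C followed by a run of pyrimidines, through which their translation is controlled together. Of 47 large subunit proteins 16 were called lower, of 32 small subunit proteins 10, and of 18 other TOP mRNAs 8. None of the 3 lists had a member called higher (none at an unadjusted p under 0.05 and none with DESeq2). Over all genes tested 4.53% were called higher and 5.13% lower. The medians of the 3 lists were -0.43, -0.44 and -0.48, and 44, 30 and 18 members lay below 0, as did 9441 of all 17105 genes tested.

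The annotated starts of some named members are shown for the pyrimidine runs, with 10 bases before the start and 20 from it, 5′ to 3′. Capitals mark the unbroken run of C and T that begins at the start, and NDUFA1 and ATP5J are given as genes that moved the other way. The bases are those of RefSeq on GRCh38.p14.
EIF4B, chr12:53006446-53006475, plus strand: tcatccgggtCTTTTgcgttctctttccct
RPL7A, chr9:133348208-133348237, plus strand: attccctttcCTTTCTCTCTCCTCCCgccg
RPS3, chr11:75399508-75399537, plus strand: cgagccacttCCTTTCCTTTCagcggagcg
RPS3A, chr4:151099618-151099647, plus strand: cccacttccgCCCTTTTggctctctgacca
RPL4, chr15:66504836-66504865, minus strand: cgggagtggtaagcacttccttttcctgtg
RPL19, chr17:39200273-39200302, plus strand: tctccccttcgcagataatgggaggagccg
RPS4X, chrX:72277229-72277258, minus strand: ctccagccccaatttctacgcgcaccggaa
NDUFA1, chrX:119871822-119871851, plus strand: cggccgcggggcttgctgggaagagaggcg
ATP5J, chr21:25735035-25735064, minus strand: cttcctcctcCTgtttggcttctgtctcac

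The run was 16 bases long in RPL7A, 11 in RPS3, 7 in RPS3A and 5 in EIF4B. RPL4, RPL19 and RPS4X, all called lower, had no run at the annotated start. In the bases shown, a run of C and T begins a little after that start in RPL4 and lies directly before it in RPL19. The count thus depends on where the start is annotated. A C with at least 4 further pyrimidines at the start (on the gene's own strand) was present in 65.8% of large subunit proteins, 72.0% of small subunit proteins and 90.9% of the other TOP mRNAs with a start in the table, and in 12.9% of the respiratory chain subunits. Across the calls it was present in 58 of 714 lower genes (8.12%), 34 of 617 higher genes (5.51%) and 595 of 11309 genes tested (5.26%). After the ribosomal protein and other TOP lists were left out, 42 of 689 lower genes held it (6.1%). The share over all 27305 starts was 4.04%.

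EIF4B (chr12:53400066-53435999 on GRCh37), a cofactor of the eIF4A helicases and itself a TOP mRNA, had the largest decrease of the 3 lists. It stood at 1770, 2054, 1399 and 1663 CPM in control siRNA SUB and at 722.5, 700.5, 689.3 and 666.4 CPM with CNOT1 siRNA. In input the values were 894, 888, 948 and 956 CPM and then 757, 779, 756 and 713 CPM. The groups overlapped in neither compartment, and the decrease was larger in SUB (interaction -1.01 ± 0.14 SE, FDR 0.000697, edgeR). EIF3L and EIF3E, subunits of the initiation factor eIF3, followed with -0.85 and -0.81.

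RPL7A ratios were 0.84, 1.17, 1.19 and 1.07 with control siRNA and 0.41, 0.40, 0.39 and 0.20 with CNOT1 siRNA (interaction -0.72 ± 0.13 SE, FDR 0.00224, edgeR). RPL4 and RPL19 gave -0.80 and -0.75, and RPS4X, RPS3A and RPS3 gave -0.69, -0.62 and -0.60, of which the call of RPS3A was lost in 18 of the 32 alternatives. RPS3 SUB fell from 4436, 5519, 5608 and 5037 CPM to 2443, 2161, 1906 and 2178 CPM. Both compartments lost ribosomal protein mRNA, with 45 of the 47 large subunit genes lower in SUB and 44 lower in input. The loss was the larger in SUB, with medians of -0.98 in SUB and -0.58 in input for the large subunit genes. Reads shared with processed pseudogenes make single ribosomal protein values uncertain.

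In the 4 replicates the median ratio of the large subunit genes was 0.83, 1.18, 1.11 and 1.08 with control siRNA and 0.64, 0.61, 0.68 and 0.54 with CNOT1 siRNA, without overlap. That of the small subunit genes was 1.01, 1.46, 1.23 and 1.24 and then 0.81, 0.87, 0.77 and 0.65, also without overlap. The counts moved with the libraries used and the medians moved less. The small subunit list had no call with replicates 1 and 2 alone, without the replicate 3 libraries or without the replicate 4 libraries, and 12 with replicates 3 and 4 alone. Its median stayed between -0.50 and -0.29. The large subunit list had 7 calls with replicates 1 and 2, 20 with replicates 3 and 4, and 1 without the replicate 4 libraries, with a median between -0.51 and -0.35.

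Immediate early genes, whose short-lived mRNAs are classic substrates of deadenylation, had a median of -0.59. Of 17 tested, IER3, CYR61, KLF4 and MYC were called lower (23.5%, beside 5.13% of all genes tested). None was called higher (1 at an unadjusted p under 0.05, 1 with DESeq2). KLF4, a zinc finger transcription factor, stood at 142, 152, 158 and 141 CPM in control siRNA input and rose to 221, 220, 234 and 189 CPM, while its SUB values were 136, 129, 138 and 136 CPM and then 122, 133, 138 and 119 CPM. CYR61, a secreted matrix protein, rose by 0.44 in input and fell by 0.66 in SUB. In input 12 of the 17 genes rose and 1 fell, beside 19.5% and 18.0% of all genes tested. In SUB 6 rose and 3 fell, beside 17.4% and 21.6%. EGR1, a gene not called, had input values of 5.44, 4.29, 8.28 and 4.86 CPM and then 27.5, 13.4, 114.9 and 21.98 CPM, with replicate 3 the highest in both.

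Ribosome biogenesis factors had 4 of 20 called lower and none higher (1 at an unadjusted p under 0.05, none with DESeq2), with a median of -0.32. NOP2, an rRNA methyltransferase of the nucleolus, had ratios of -0.05, -0.23, 0.04 and 0.22 with control siRNA and of -0.95, -0.89, -0.88 and -0.85 with CNOT1 siRNA. The MCM helicase and origin factors had 3 of 16 called lower (18.8%), MCM5, CDC45 and MCM2, and GINS2 called higher (6.25%), with a median of -0.31. Over all genes tested these shares were 5.13% and 4.53%. The call of GINS2 (FDR 0.0451, edgeR) was lost in 23 of the 32 alternatives, and that of MCM2 without the libraries of any one replicate number. Proteasome subunits had 3 of 34 called higher (8.82%, beside 4.53% of all genes tested), PSMA7, PSMB3 and PSMB6, with a median of 0.02. None was called lower (none at an unadjusted p under 0.05 and none with DESeq2).

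**Figure D3:**
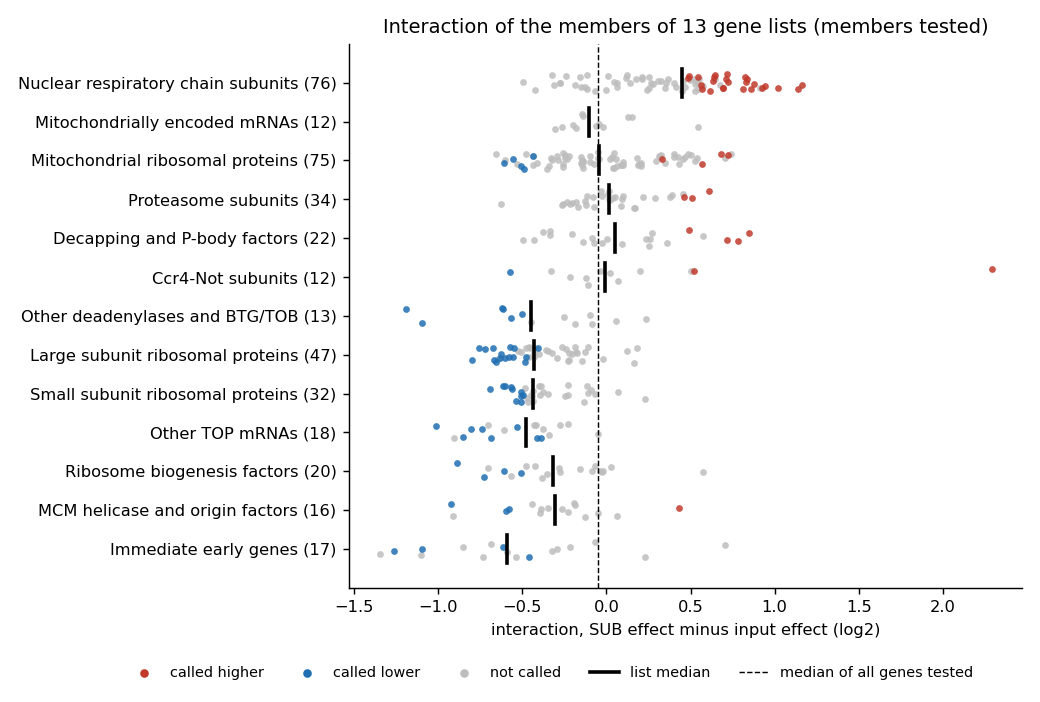
Interaction (SUB effect minus input effect, log2) of each tested member of 13 gene lists, with members called higher in red, lower in blue and uncalled in grey; thick bars are list medians and the dashed line is the median of all genes tested (-0.05). The respiratory chain list sits to the right (median 0.45, 25 called higher) and the ribosomal protein and other TOP lists to the left (medians -0.43, -0.44 and -0.48).

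The called genes differed in coding length, a property the comparison did not use. The annotated coding sequence had a median of 1010 nt in higher genes and 1596 nt in lower genes, beside 1431 nt in all protein-coding genes tested with a value. Without the respiratory chain list the median of the higher genes was 1041 nt. Among 255 genes with a coding sequence under 300 nt, 24.3% were called higher and 0.392% lower. Among 1323 genes from 300 to under 600 nt these shares were 13.2% and 2.8%, and from 1200 to under 2400 nt they were 4.06% and 7.87%. The median input effect rose from -0.40 in the shortest class to 0.16 in the class from 2400 to under 4800 nt, whereas the median SUB effect stayed between -0.02 and 0.06.

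Ribosomal proteins departed from this order in SUB and in the interaction, and in input they fell further than the short classes. Their median input effects were -0.58 (large subunit) and -0.625 (small subunit), beside -0.40 under 300 nt and -0.22 from 300 to under 600 nt. Their median SUB effects were -0.98 and -1.0. Their coding sequences were short, with medians of 471 nt in the large and 445.5 nt in the small subunit, close to the 424.5 nt of the respiratory chain subunits, and their interactions lay on the other side of 0. The median 5′ UTR of higher genes was 149.5 nt with 72.1% GC and that of lower genes 115 nt with 66.1% GC, beside 145 nt and 67.5% over all protein-coding genes tested with a value. The median 3′ UTR had 1672 nt in higher genes, 1195 nt in lower genes and 1344 nt in all. The ATTTA element of AU-rich mRNAs occurred at a median of 1.91 per kb of 3′ UTR in higher genes, 1.68 in lower genes and 1.76 in all, searched on the mRNA strand with overlaps counted. The Pumilio motif TGTANATA was present in 29.2%, 33.6% and 30.9% of 3′ UTRs.

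**Figure D4:**
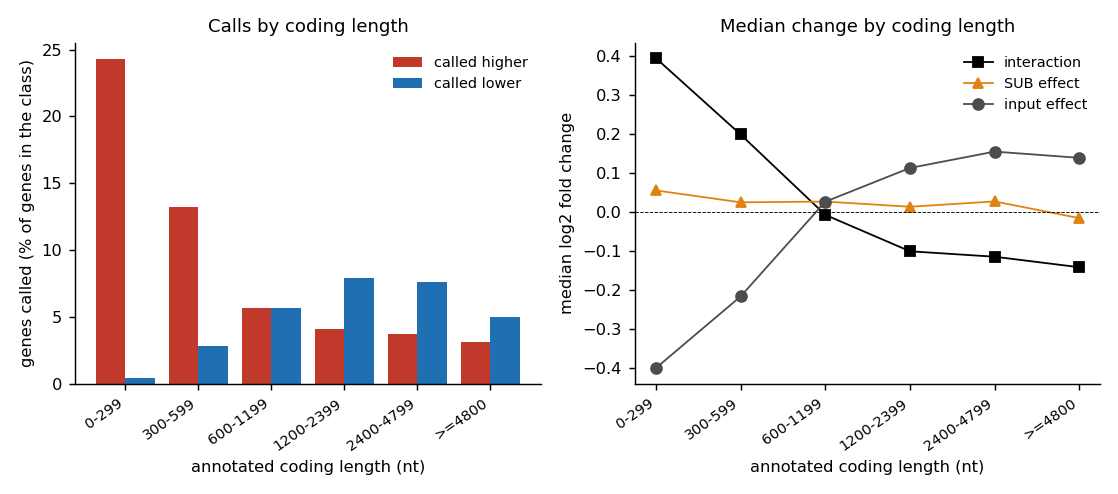
Left, percent of protein-coding genes called higher (red) and lower (blue) in 6 classes of annotated coding length in nt; right, median log2 interaction, SUB effect and input effect in the same classes. The share called higher falls from 24.3% under 300 nt to 3.1% from 4800 nt, and the input median moves while the SUB median stays near 0.

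Polysomal RNA (fractions 6 to 11) was not used in the comparison, although its libraries carry the same replicate numbers and come from the same gradients. Input RNA was taken before the gradient and so holds polysomal RNA as well. Median input effects were -0.31 in higher and 0.33 in lower genes, so the polysomal effect is not independent of the calls. The polysomal libraries of replicate 3 went against their labels, with 28.3 CPM of CNOT1 in the library labelled control siRNA and 631.3 CPM in the library labelled CNOT1 siRNA, and both were left out. Higher genes had a median polysomal effect of -0.38 and lower genes of 0.44, beside 0.00 over all genes tested in both fits. Polysomal RNA was called lower for 433 of 775 higher genes (55.9%, background 14.7%) and higher for 544 of 877 lower genes (62.0%, background 17.2%). The ribosomal protein and other TOP lists did not follow the lower genes in this. In polysomal RNA, 32 of 47 large subunit genes were called lower and 0 higher, with a median of -0.40. For the 32 small subunit genes these were 20, 0 and -0.405, and for the 18 other TOP mRNAs 5, 1 and -0.11. With both replicate 3 libraries kept, the medians of the higher and lower genes were -0.18 and 0.19. SPG21 fell by 0.83 in polysomal RNA, while HDHD3 rose by 1.31. All 12 genes with the largest increases were called lower in polysomal RNA and 9 of the 12 with the largest decreases were called higher.

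The immunoprecipitations of eIF4A1, eIF4A2 and DDX6 from untransfected HEK293 lysate, each set against total RNA with 3 libraries a group, shared no library with the gradients. DDX6, an RNA helicase of repressed mRNPs, gave the widest separation of medians among the 3 IPs. Higher genes had a median log2 DDX6 enrichment of 0.37 and lower genes of -0.29, beside 0.00 over all genes. Of higher genes 42.6% were enriched with DDX6 and 17.5% depleted, of lower genes 9.71% and 38.2%, and of all genes 23.3% and 24.2%. SPG21 and CDK2AP1 were enriched with DDX6 (1.25 and 1.82), whereas WFS1 and FKBP15 were depleted (-1.43 and -1.02). Of the 12 genes with the largest increases 7 were enriched with DDX6, and of the 12 with the largest decreases 6 were depleted. DAD1 (-0.56) was depleted although it was called higher, and BTG2 (1.05) and IFRD1 (0.80) were enriched although they were called lower.

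For eIF4A1, a helicase of cap-dependent initiation, 36.5% of higher and 13.9% of lower genes were enriched, with 26.5% of all genes enriched and 27.6% depleted. Depletion was called for 23.4% of higher and 42.6% of lower genes. The medians were 0.20 and -0.31. For eIF4A2 the medians of the groups lay closer, at -0.15 for higher and -0.18 for lower genes. Enrichment with eIF4A2 was called for 26.3% of higher and 17.3% of lower genes, and depletion for 35.7% and 34.6%, beside 24.7% of all genes enriched and 27.0% depleted. After knockdown of TNRC6A and TNRC6B, the scaffold proteins of miRNA silencing, medians were -0.02 and -0.01 from 4 libraries, beside -0.03 over all genes. No gene of the 14006 tested in both fits was called in either direction, so this readout cannot tell the groups from other genes. No test was made between these shares.

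**Figure D5:**
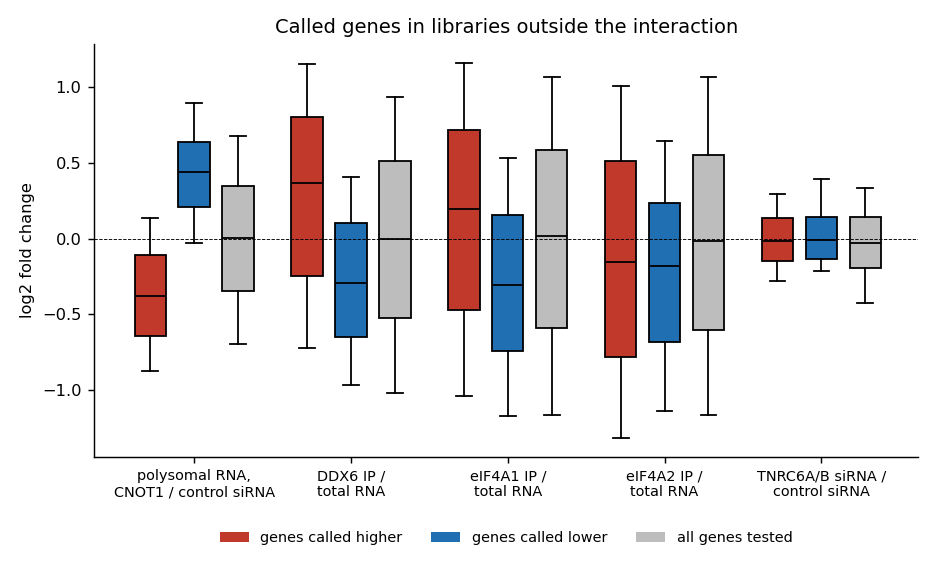
Log2 fold changes in libraries outside the comparison for genes called higher (red), genes called lower (blue) and all genes tested (grey); boxes are quartiles with the median and whiskers reach the 10th and 90th percentiles of genes. Polysomal RNA and the DDX6 IP separate the groups with medians of -0.38 and 0.44, and of 0.37 and -0.29. The polysomal readout is not independent of the input effect, since input RNA holds polysomal RNA. With TNRC6A/B siRNA both groups and all genes tested are near 0, and no gene was called.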

How the data were processed

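RNA was sequenced from stranded libraries of HEK293 cells. The authors aligned reads to hg19 with TopHat2 and counted them per gene with HTSeq; demultiplexing used bcl2fastq 2.0. The deposited values are raw counts for 55765 gene symbols; the strand option of the counting is not given in the sources used here. A series-wide table was not used here.

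From the counts, edgeR 4.0.16 (R 4.3.3) fitted 4 group means to 16 libraries with TMM scaling, after filterByExpr left 17105 genes. P-values are two-sided quasi-likelihood with Benjamini-Hochberg adjustment over all genes. Nothing in the labels says the replicates came from separate cultures, so p-values measure the spread between these samples. Per-replicate ratios used log2 CPM with a prior count of 2. Other fits were DESeq2 1.42.0, RLE and upper quartile scaling, other filters, replicate blocks, and libraries left out. Replicate numbers pair the siRNA arms within a fraction: same-numbered deviations correlated at 0.121 to 0.219 in input and 0.458 to 0.609 in SUB, 0.126 to 0.248 between CNOT1 siRNA input and SUB, and -0.03 to 0.27 between control siRNA input and SUB. Named genes were the 12 largest changes each way among called genes with at least 10 CPM and ratios that did not overlap, Ccr4-Not subunits and helicases, and up to 3 called genes each way per list; defining members of a list are also named. Members and lists were chosen with earlier results of these data known; genes outside this rule were named after their values were seen. Gene positions, lengths and UTRs come from GENCODE on GRCh37; 33529 symbols matched, and 1847 by older names. On simulated counts 85 of 100 genes changed by 1 log2 unit were recovered. These counts had no pairing between replicates, and genes with few counts were not changed. The called genes had smaller median interactions, 0.68 and -0.63, and recovery at that size was not simulated.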

Additional observations from a re-analysis of the deposited data

Results flagged for a closer look

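The count of genes whose effect differed between SUB and input, by the interaction term of edgeR, was 775 higher and 878 lower. The interaction of each of the 24 genes with the largest changes passed the same test of a difference between the compartments. The increases were 2.29 for CNOT1, 1.21 for SPG21, 1.20 for TSPAN33, 1.18 for ARSB, 1.16 for NDUFA1 and for BACE2, 1.15 for TMX4, 1.14 for CDK2AP1 and for COX6C, 1.13 for DAD1 and for FAM189B, and 1.12 for LAPTM4B. The decreases were -1.53 for HDHD3, -1.41 for WFS1, -1.21 for RNF149, -1.19 for CCRN4L, -1.18 for PLEKHG3, -1.14 for ANKZF1 and for C7orf43, -1.13 for FKBP15, -1.10 for CYR61 and for BTG2, and -1.06 for IFRD1 and for TRIM45.

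In 2 of the 48 groups of 4 ratios of these genes, 1 replicate lay far from the others, and chance alone sets apart about 1 in 20 such groups. SPG21 had a SUB/input ratio of 1.18 in CNOT1 siRNA replicate 2, with a group median of 0.70. ANKZF1 had 1.01 in control siRNA replicate 4, with a group median of 0.81.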

How the results depend on the processing

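No gene called in the main comparison was called in the opposite direction under any of the 32 alternatives. Counts moved. Genes higher and lower were 1337 and 1405 with the replicate block, 2690 and 3097 with the block within each fraction (chosen after seeing the data), 284 and 238 with all 24 gradient libraries, 1093 and 1134 with the 22 left without polysomal replicate 3, and 1479 and 983 with DESeq2, which left 4975 adjusted p-values undefined. Upper quartile scaling gave 1167 higher, and replicates 3 and 4 alone (chosen after seeing the data) gave 499 lower. Leaving out libraries gave between 140 and 1064 higher and between 122 and 1138 lower. The share of higher genes among all called was 46.9% with TMM, 61.9% with RLE, 58.4% with no filter and 60.1% with DESeq2, and the median of all genes moved from -0.05 to 0.00 with RLE. The block by culture gave 767 and 842, of which 678 and 739 were called without it. Of 768 values of the 24 genes with the largest changes over the alternatives, 757 stayed called and 11 lost the call, NDUFA1, PLEKHG3, TRIM45 and WFS1 without replicate 1 or 4 and CNOT1, CDK2AP1, CCRN4L, C7orf43, BTG2 and IFRD1 with all 24 gradient libraries. The cause of these shifts was not tested. Depth was lowest in the SUB libraries of replicates 3 and 4, which limits genes with few counts there.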

Other observations

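Of 451 numbered ZNF zinc finger genes, 4 were called higher (0.887%) and 19 lower (4.21%), beside 4.53% and 5.13% of all genes tested, with a median of -0.14, and ZNF395 gave 0.72. Of 247 SLC membrane transporters, 13 were higher (5.26%) and 14 lower (5.67%), among them SLC44A1 at 0.95 and SLC16A13 at -1.17. Of 35 HOX genes, HOXD1, HOXD3 and HOXD10 were among 4 called lower (11.4%). The call of HOXD10 was lost in 16 of the 32 alternatives, that of HOXD1 in 8 and that of HOXD3 in 6. Basement membrane genes had COL4A1, NID1 and LAMC1 called higher of 20, all 3 of which had input effects between -0.73 and -0.62. Among ER chaperones PDIA6, HYOU1 and P4HB were called higher (15.8%) and DNAJB9 lower, of 19. The SUB/input ratios of P4HB overlapped between the siRNAs, and its call (FDR 0.0471, edgeR) was lost in 23 of the 32 alternatives, as was that of LAMC1 in 14.

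The list of 7SL, 7SK and RNase RNAs had a median of -1.65 in 5 genes with no call (2 lower at an unadjusted p under 0.05, none with DESeq2). Their median SUB/input ratios were 1.55, 2.84, 4.75 and 2.24 with control siRNA and 2.25, 2.52, -0.20 and 2.42 with CNOT1 siRNA, so that replicate 3 stood apart in both groups. Replication-dependent histones, of which 28 were tested, had no call (none at an unadjusted p under 0.05 and none with DESeq2).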
